A study of Rattus norvegicus with 8 samples.

Results

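Livers of 4 control rats were examined for 2 things: the genes of brightest signal in untreated liver, and the 200 probes whose signal differed most from one animal to the next. The 200 probes were those with the largest SD, over the 4 control arrays, of the log2 ratio of the liver intensity over the intensity of a pool of control liver. They were taken from 9292 eligible probes, which had values on all 4 arrays and a mean pool intensity of at least 0.2 units, out of 23615 probes on the array. Of the 200, 142 carried a symbol, 136 of these symbols were distinct, and 58 probes had no symbol. Because the SD of the ratios chose the probes, their ratios are given as a description and were not tested.

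The liver makes most of the proteins of blood plasma, stores and releases glucose, breaks down amino acids and clears drugs and hormones. During infection or injury, cytokines such as interleukin-6 and interleukin-1 reach the hepatocyte and raise the acute-phase proteins, among which alpha-2-macroglobulin is the classic one of the rat. Feeding, fasting, time of day, handling and sex hormones are also known to change liver transcripts within hours, so livers of untreated animals need not be alike.

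The control animals were Sprague Dawley rats. The sample titles call them non-treated, while the treatment protocol gives them a vehicle, 0.9% sodium chloride, injected into the peritoneum, with livers taken after 24 h. The column headers give a dose of 0 mkd and day 2 for the same arrays. Age was labelled as not known and the labels give no sex. Each liver was labelled with Cy5 and the pool with Cy3 on every array, so a dye effect that is equal on all arrays does not enter the SD of a ratio. RNA was amplified in 2 rounds from an input of 100 ng. The other 4 of the 8 samples came from rats given lipopolysaccharide and were not used. The labels describe the controls as biological replicates, and the arrays are numbered 1 to 4 in the order of the table of values, and these are not the replicate numbers of the titles.

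Each control array held values for 23469 to 23508 probes, with medians of 0.12 to 0.16 units and maxima of 46.8 to 55.8 units in the liver channel. The intensities are in arbitrary units with 2 decimals, and the number of arrays limits the precision. Markers of hepatocytes had a summed liver intensity of 48.8, 58.3, 53.7 and 61.3 units on arrays 1 to 4. The sum covers the 5 of 11 markers with values on all 4, of which 3 were eligible. Serpina1 was the only one of these 5 under 0.05 units, and Hnf4a read 0.15 to 0.19 units, near the array medians. A probe of Alb read 28.9 to 38.7 units, so the sum rests on few genes. Markers of neutrophils summed to 0.87, 0.74, 0.62 and 0.68 units over 12 genes, and 7 of the 12, among them Mpo and S100a8, were under 0.05 units. Markers of macrophages and Kupffer cells, the resident macrophages of liver, summed to 40.9, 58.3, 49.9 and 50.8 units over 11 genes. In such bulk samples fewer cells of a type and less RNA per cell cannot be told apart.

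Among probes with values on all 4 arrays, ribosomal protein genes were the most numerous group at the top of the intensity scale. Of the 20 genes with the highest mean liver intensity, 6 encoded ribosomal proteins (Rps29, Rps24, Rpl24, Rpl41, Rpl21 and Rpl34). Got2 encodes the mitochondrial aspartate aminotransferase of amino acid metabolism. Lipid handling was represented by Slc27a2, which activates very long chain fatty acids, and Apoc3, an apolipoprotein of triglyceride-rich particles. Serpinf2 encodes the inhibitor of plasmin and Ugt2b37 a glucuronosyltransferase. Also among the 20 were Cisd1, an iron-sulphur protein of the outer mitochondrial membrane, Prdx5, a peroxiredoxin, F11r, a tight-junction protein, Npm1, a nucleolar protein, and Ddt, a homologue of the cytokine MIF.

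The means of the 16 genes named lay between 41.3 and 45.2 units, and 16 of the 20 were at 90% or more of an array's highest value on at least 1 array. On array 4, 11 of the 20 stood between 44.64 and 44.72 units, so their order on that array cannot be read. Apoc3 had liver intensities of 39.2, 51.9, 42.7 and 37.0 units on arrays 1 to 4, and Serpinf2 had 33.1, 48.2, 52.4 and 44.7 units. The brightness of a probe depends on its sequence as well as on the transcript, and no order among these genes is drawn from it. The SD of the log2 ratio of the 20 was 0.137 to 0.471, and ratios near the highest values may be compressed. None of the 20 was among the 200, where 2.13% of all eligible genes with a symbol were. A group of 20 therefore shows nothing by holding none.

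**Figure D1:**
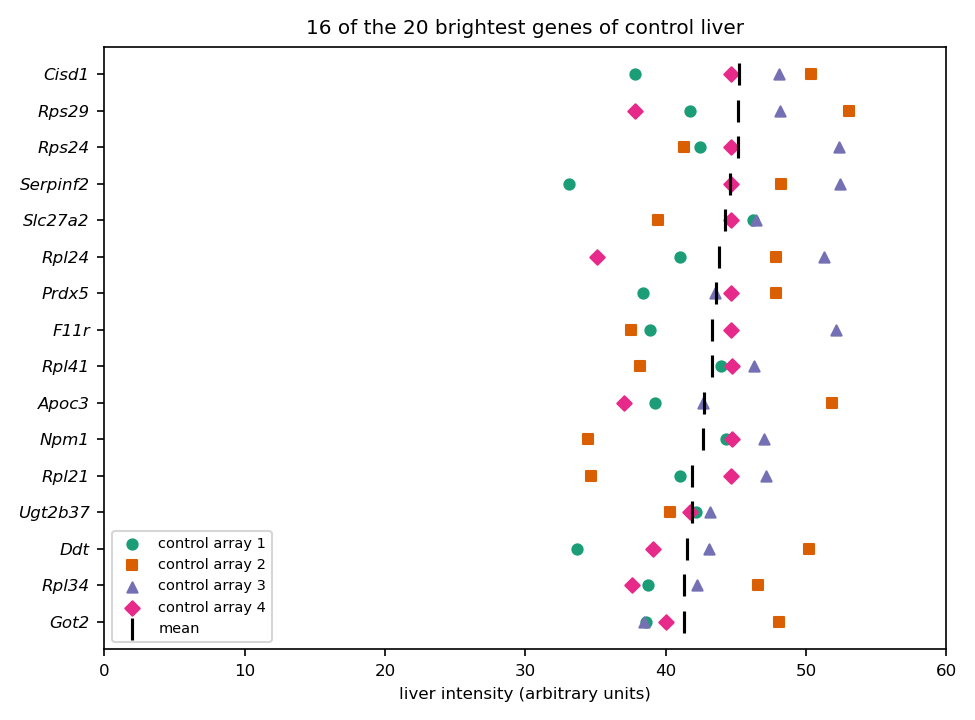
Liver intensity in arbitrary units (x axis, from 0) of 16 of the 20 genes with the highest mean intensity over the 4 control arrays. Each symbol is 1 array and the black bar is the mean; the means lie between 41.3 and 45.2 units and 9 genes share nearly the same value on array 4.

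The choice of the brightest genes rests on which probes had values. Among probes above 20 units where measured, 83 lacked a value on 1 to 3 of the control arrays, most often on array 4 (74 probes) and array 2 (53 probes). A further 59 probes had no value on any control array, among them the probes of Ttr, which encodes transthyretin, Fgb and Fgg, the fibrinogen beta and gamma chains, Hp, which encodes haptoglobin, and Cyp2e1. Of 3 probes of Alb, which encodes albumin, 1 had no value, while another read 28.9, 38.7, 30.9 and 32.2 units and the last 2.69, 2.27, 2.82 and 2.82 units. The probe of Apoa1 read 47.9 and 42.8 units on arrays 1 and 3 and had no value on arrays 2 and 4. When values on 2 arrays were enough, 5 of the 20 genes stayed among the brightest, and Apoa1 was among the 15 that entered.

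Among the 100 brightest genes, 16 were ribosomal, and 5 were on a list of sex-dependent rat liver genes, including Cyp2c11 and Cyp2c13. Of 6381 eligible genes with a symbol, 24 were on the sex-dependent list and 31 on a ribosomal list that held 9 of the 16. In this brightest group of 100, 4 genes were also among the 200, where 2.13% of all eligible genes with a symbol were. Nothing is read from so small a count. Sds, the serine dehydratase that feeds serine into glucose synthesis, had 39.4, 51.6, 15.9 and 44.8 units on arrays 1 to 4. Igfbp1, a secreted binder of insulin-like growth factors that insulin represses, had 28.0, 55.8, 21.4 and 39.7 units. Both were lowest on array 3. Cyp8b1, the sterol 12-alpha-hydroxylase that sets the kind of bile acid made, had 15.6, 35.8, 53.2 and 45.7 units, lowest on array 1. RT1-A2, a classical class I histocompatibility gene, had 48.2, 49.9, 25.8 and 30.6 units, but its pool channel also ran from 30.7 to 46.1 units. Other eligible probes of RT1-A2 varied less and did not share 1 order. One such probe had log2 ratios of 0.14, 0.42, -0.45 and -0.31 on arrays 1 to 4. The remaining ones had -0.18, -0.39, 0.04 and 0.36, and -0.09, -0.44, -0.19 and 0.31, both highest on array 4.

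The spread over the arrays was also taken in each channel. The pool is 1 RNA measured on every array, so its spread holds no differences between animals. The liver channel holds differences between 4 animals, and also those of preparing, amplifying and labelling each liver's RNA. With 1 array per animal these cannot be told apart, and the 2 channels also differ in dye. With each array centred on its median, the SD over the 4 arrays had a median of 0.858 for the liver channel and 0.0747 for the pool channel of the 200 probes. Over all 9292 eligible probes the medians were 0.193 for the liver channel and 0.0749 for the pool channel. The liver channel varied more than the pool channel in 200 of the 200 and in 7873 of the 9292. Only 6 of the 200 had a pool SD of at least 0.2. The intensities that chose the 200 enter these values, so they describe the choice. The ratios themselves had a median SD of 0.840 in the 200 and 0.155 over all eligible probes, with 66 of the 200 at 1 or more and 9 at 2 or more.

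**Figure D2:**
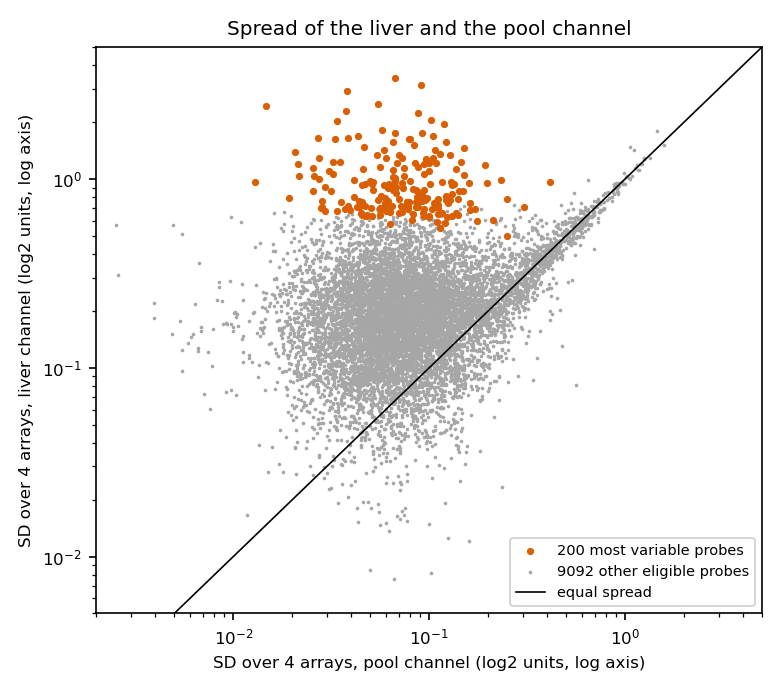
SD over the 4 control arrays of the log2 intensity in the liver channel (y axis) and the pool channel (x axis), both on log axes, each array centred on its median. Orange points are the 200 most variable probes and grey points the other 9092 eligible probes; the 200 sit above the line of equal spread.

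The authors' deposited table also gives a p-value for the liver against the pool on each array, from an error model that is not given. In the authors' deposited table, 196 of the 200 had a p under 0.01 on at least 1 control array and 32 had it on all 4, against 1059 of the 9292 (11.4%) on at least 1. These p-values rest on the intensities that chose the probes and add no independent evidence.

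The mean over the 4 arrays of the linear ratio of liver over pool had a median of 1.00 in the 200 and 1.01 over all eligible probes. It lay between 0.9 and 1.1 for 198 of the 200. The other 2 were Igfbp1, at 0.73, and the Hps5 probe, at 1.17. Igfbp1 was at 90% or more of the highest value in at least 1 channel on each of the 4 arrays, with 45.5 to 53.8 units in the pool, so its ratios have no firm size. Its SD was 0.42 without array 2, against 0.67 with it. Which livers the pool holds is not given in the sources used here. Across the 9292 eligible probes, the log2 ratios of array 1 correlated at -0.38 with those of array 3, and those of array 2 at -0.35 with those of array 4. The other pairs lay between -0.28 and 0.07. Ratios of 4 independent livers to their own mean would correlate at about -0.33 on average, and nothing is read from these values. The labels state the dyes, so the direction was kept as liver over pool on every array.

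At the edge of the choice, Oas1a and Gadd45a were the last probes inside, both with an SD of 0.648. A second probe of Cyp3a23-3a1, a drug-metabolising P450, was the nearest outside, with 0.647. The edge therefore separates no distinct group.

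Each of the 4 animals held the highest or lowest value for part of the 200. The highest ratio was on array 1 for 44 of the 200, on array 2 for 51, on array 3 for 57 and on array 4 for 48. These are 22%, 25.5%, 28.5% and 24% of the 200, against 18.8%, 32.8%, 24.7% and 23.7% of all eligible probes. The lowest was on array 1 for 46, on array 2 for 65, on array 3 for 60 and on array 4 for 29, or 23%, 32.5%, 30% and 14.5% of the 200, against 18.9%, 28.7%, 24.9% and 27.5% of all eligible probes. By the largest gap between the ordered ratios, 83 of the 200 (41.5%) had 1 low array, 63 (31.5%) had 1 high array and 54 (27%) split 2 against 2, while over all eligible probes these shares were 36.8%, 36.1% and 27.2%. The commonest patterns were array 3 low (16% of the 200, against 9.43% of eligible probes), array 3 high (14.5% against 9.03%) and array 2 low (14% against 13.3%). The commonest over all eligible probes, array 2 high, made up 15.3% of them and 8.5% of the 200. Ranked on the other 3 arrays, 134 of the 200 stayed among the 200 of largest SD without array 3, 143 without array 2, 161 without array 1 and 165 without array 4.

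Large deviations from the pool were counted on each array. A ratio of at least 2-fold from the pool was found for 36 of the 200 on array 1, where 0.387% of all eligible probes passed it. The counts were 60 on array 2 (0.667% of eligible probes), 72 on array 3 (0.796%) and 29 on array 4 (0.312%). Of these, 4, 9, 19 and 2 were above the pool and 32, 51, 53 and 27 below it. With the mean linear ratio near 1, a liver far above the pool goes by arithmetic with others below it, so the excess of low values is no result about the livers. The same ratios chose the probes, so nothing is read from the difference between these shares.

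**Figure D3:**
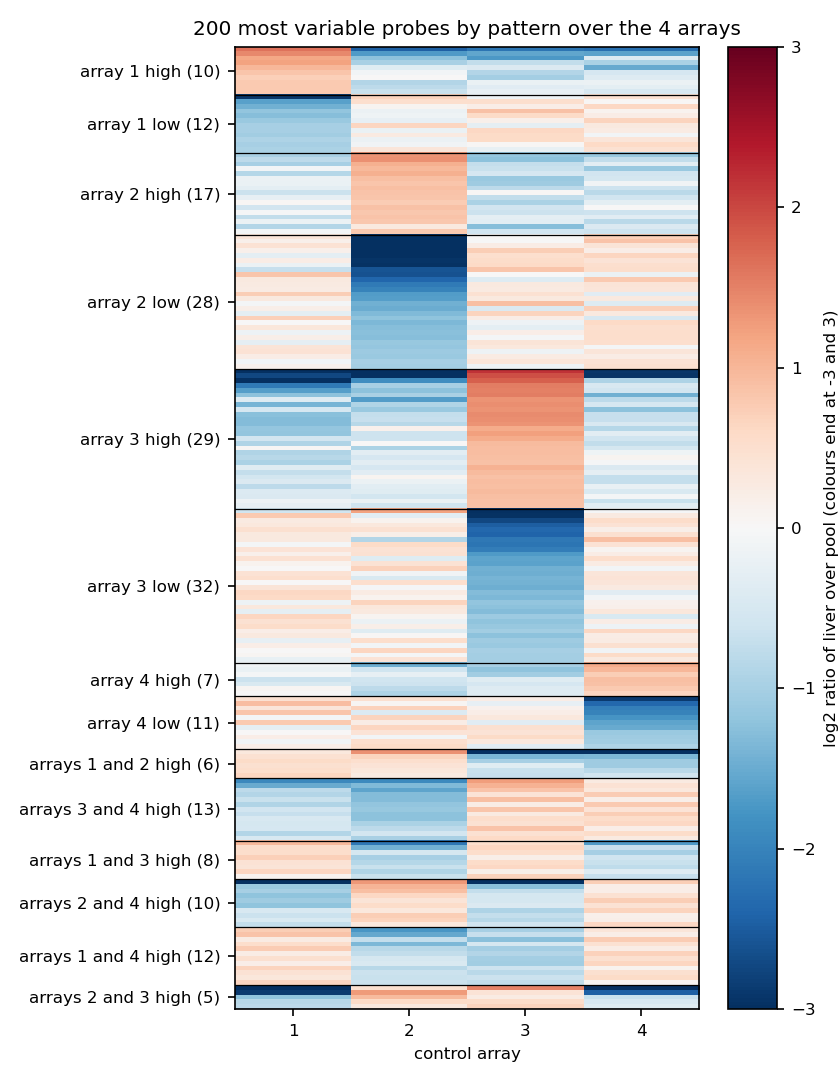
Log2 ratio of liver over pool of the 200 most variable probes (rows) on the 4 control arrays (columns), red above and blue below the pool, with colours ending at -3 and 3. Rows are grouped by which array or pair of arrays stands apart, with the number of probes in brackets; the largest groups are array 3 low (32), array 3 high (29) and array 2 low (28).

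Acute-phase genes differed between the control livers and were mostly highest in the liver of array 3. A2m encodes alpha-2-macroglobulin, a protease trap of plasma. Its liver intensities were 0.85, 3.15, 35.1 and 6.06 units on arrays 1 to 4, beside 10.2 to 11.4 units in the pool. The log2 ratios were -3.59, -1.85, 1.79 and -0.92, with an SD of 2.24, or 1.35 without array 3. Array 3 stood far above the others and array 1 far below them. Lbp encodes the plasma protein that hands lipopolysaccharide to CD14, and had 1.41, 2.37, 14.5 and 3.61 units beside 4.45 to 5.55 units in the pool. Its order over the arrays was that of A2m, and its SD was 0.54 without array 3, against 1.41 with it. Orm1, which encodes the plasma binding protein alpha-1-acid glycoprotein, had 1.31, 2.19, 9.02 and 2.31 units. A second Orm1 probe gave log2 ratios of -1.30, -0.69, 1.39 and -0.69, against -1.26, -0.70, 1.42 and -0.68 for the one above.

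Smaller differences of the same kind were seen for carriers of heme and copper. Hpx, which encodes hemopexin, the heme scavenger of plasma, had 8.99, 12.7, 28.5 and 18.3 units, lowest on array 1 and highest on array 3. Cp, which encodes the copper ferroxidase ceruloplasmin, had 8.18, 5.91, 17.3 and 15.3 units and was high on arrays 3 and 4.

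Hamp, which encodes hepcidin, the hormone that closes the iron exporter ferroportin and that interleukin-6 and iron both induce, followed a different order. It had 2.66, 0.17, 0.18 and 0.17 units on arrays 1 to 4, beside 0.82 to 0.93 units in the pool. The liver of array 1, the lowest in A2m, Lbp and Orm1, was the only high one. Without array 1 the SD of Hamp was 0.14, against 1.97 with it.

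Of 29 acute-phase genes listed, 15 were eligible and 6 were among the 200, against 136 of 6381 genes with a symbol (2.13%). The median log2 ratio of the 15 was -0.47, -0.09, 0.41 and -0.05 on arrays 1 to 4. Array 3 held the highest ratio for 10 of the 15 and array 1 the lowest for 10, while over all genes with a symbol array 3 was highest for 23.8% and array 1 lowest for 19.3%. The list of plasma carriers, apolipoproteins and clotting factors leaned the same way. Of its 20 eligible genes, 10 were highest on array 3 and 9 lowest on array 1. Fga, the fibrinogen alpha chain, had log2 ratios of -0.54, 0.35, 0.42 and -0.28, and Saa4, a constitutive serum amyloid A, had -0.68, 0.04, 0.43 and -0.09; both were chosen after their values were seen. Most markers of neutrophils were at the bottom of the scale, so their summed level of 0.62 units on array 3 and 0.68 to 0.87 on the others says little. The only eligible one, S100a9, had log2 ratios of -0.55, 0.48, 0.18 and -0.13 on arrays 1 to 4, and the macrophage markers summed to 49.9 units on array 3 and 40.9 to 58.3 on the others. Their part in the acute-phase differences was not tested.

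The promoters of acute-phase genes are known for binding sites of STAT3, which carries the interleukin-6 signal, and of C/EBP factors. The stretches of 250 bases before the start of Hamp and Orm1, from RefSeq on the rat assembly GRCr8, are shown because these genes stood apart on different arrays. Capitals mark matches, on either strand, to TTCNNNGAA, the form of a STAT site, and to TTGCNNAA, the form of a C/EBP site.
Hamp, chr1:95300272-95300521 (minus strand): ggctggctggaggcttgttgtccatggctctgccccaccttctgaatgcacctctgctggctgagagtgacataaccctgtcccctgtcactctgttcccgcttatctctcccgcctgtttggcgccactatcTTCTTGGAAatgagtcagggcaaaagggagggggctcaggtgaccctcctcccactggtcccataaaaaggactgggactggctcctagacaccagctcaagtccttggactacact
Orm1, chr5:81788259-81788508 (plus strand): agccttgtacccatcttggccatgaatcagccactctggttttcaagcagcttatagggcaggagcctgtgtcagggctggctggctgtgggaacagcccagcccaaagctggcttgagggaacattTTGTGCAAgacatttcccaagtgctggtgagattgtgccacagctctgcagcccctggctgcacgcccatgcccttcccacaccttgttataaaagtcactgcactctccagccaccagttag

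Hamp held TTCTTGGAA at 117 to 109 bases before its start and no match to TTGCNNAA. Orm1 held TTGTGCAA at 123 to 116 bases before its start, a match on the opposite strand, and none to TTCNNNGAA. The matches do not overlap, since each of these promoters held 1. Promoters were matched for 4 of the 6 acute-phase genes of the 200, and Hpx and Cp each also held 1 match to TTGCNNAA, at 200 to 193 and 72 to 65 bases before the start. Of 27457 rat promoters of this length, 7.52% held TTCNNNGAA and 9.20% held TTGCNNAA. Promoters were found for 107 of the 136 symbols among the 200, of which 10 (9.35%) held TTCNNNGAA and 18 (16.8%) held TTGCNNAA. These are matches of letters and were not tested as sites.

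A probe annotated as Hps5, a subunit of a complex that sorts cargo to lysosome-related organelles, had the largest fold range. Its liver intensities were 0.32, 0.42, 36.9 and 1.34 units on arrays 1 to 4, beside 8.23 to 10.2 units in the pool, so array 3 exceeded array 1 by 134-fold in the ratio. It was high on array 3 alone, with log2 ratios of -4.90, -4.45, 2.17 and -2.93, and its SD was 1.03 without array 3 against 3.24 with it. In the order of genes on GRCr8 the nearest neighbours of Hps5 on 1 side are Saal2, Saa4 and Saa3, the last 2 being serum amyloid A genes. On the other side, equally near, are Gtf2h1, Ldha and Ldhc. Whether the probe reads any of these genes was not tested. The identifier of this probe gave no match in the gene table, so its gene rests on the symbol of the table of values.

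Genes with ratios most like those of A2m were found by the root mean square distance of the 4 log2 ratios over all eligible genes. They were Lbp (distance 1.04), Akr1c12 (1.05), Abhd3 (1.27), Orm1 (1.31) and Akr1c2 (1.32). Akr1c12 and Akr1c2 encode aldo-keto reductases, enzymes that reduce steroids and other carbonyls. Akr1c12 had 1.02, 1.22, 9.33 and 5.41 units on arrays 1 to 4 and Akr1c2 had 0.34, 0.41, 2.34 and 1.48 units, both high on arrays 3 and 4. Abhd3, a phospholipase in mouse, had 0.08, 0.06, 1.96 and 0.07 units beside 0.51 to 0.54 units in the pool. Without array 3 its SD was 0.18, against 2.44 with it.

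Several of the most variable genes were near the bottom of the scale in some livers and well above it in others. Mlc1, which encodes a membrane protein best known from astrocytes, led the 200 with an SD of 3.46. It had 0.16, 11.5, 0.15 and 8.11 units on arrays 1 to 4, beside 4.68 to 5.02 units in the pool. Arrays 2 and 4 were high and arrays 1 and 3 low, with nothing between. Ubd, which encodes the cytokine-induced ubiquitin-like protein FAT10, had 0.10, 2.18, 4.65 and 0.11 units, and Fam111a, a protease linked to DNA replication in human cells, had 0.59, 1.13, 0.05 and 0.04 units. Dusp26, a phosphatase, had 0.06, 1.09, 0.52 and 0.09 units, and Blm, a DNA helicase, had 0.49, 0.05, 0.36 and 0.08 units. These genes split the animals 2 against 2, and the split differed: arrays 2 and 3 were high for Ubd and Dusp26, arrays 1 and 2 for Fam111a, and arrays 1 and 3 for Blm. In all, 24 of the 200 had a liver intensity of 0.1 units or less on at least 1 array, where 2 decimals leave few steps.

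**Figure D4:**
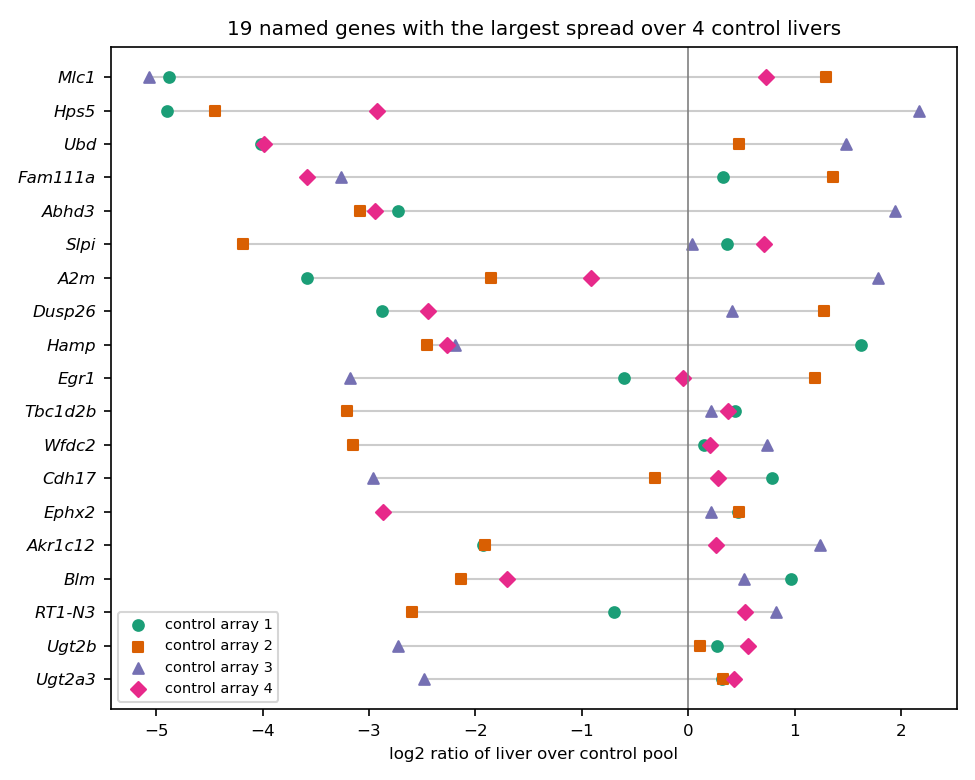
Log2 ratio of liver over pool (x axis) on each of the 4 control arrays for 19 of the 20 named genes of largest SD, with the grey line spanning lowest to highest. Mlc1 shows arrays 2 and 4 apart from arrays 1 and 3, while Hamp, Slpi, Abhd3, Ephx2 and Ugt2a3 each show 1 array apart from the other 3.

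The liver of array 2 gave the lowest signal for a group of probes. Slpi, which encodes a secreted inhibitor of neutrophil elastase, had 1.43, 0.06, 1.14 and 2.01 units on arrays 1 to 4, and its SD was 0.34 without array 2 against 2.29 with it. Wfdc2, a secreted protein of the same family, had 9.85, 1.15, 16.2 and 11.3 units. Tbc1d2b, a member of a family that acts on Rab GTPases, had 0.53, 0.04, 0.44 and 0.48 units. The pool held 1.09 to 1.23 units of Slpi, 8.90 to 10.2 of Wfdc2 and 0.37 to 0.39 of Tbc1d2b, so only the liver of array 2 stood apart in each. RT1-N3, a class Ib histocompatibility gene, was also lowest there, with 2.86, 0.78, 8.40 and 6.53 units.

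The liver of array 3 was the low one for another group. Ugt2a3 and Ugt2b, which encode glucuronosyltransferases that conjugate hormones and drugs, had 13.1, 12.8, 2.00 and 14.6 units and 4.06, 3.55, 0.53 and 5.29 units on arrays 1 to 4. Cdh17, the liver-intestine cadherin, had 3.29, 1.59, 0.25 and 2.51 units. Egr1, an immediate-early transcription factor that growth factors and stress induce within minutes, had 2.12, 7.70, 0.38 and 3.44 units. Hspa1a, the inducible heat shock protein HSP70, had 2.26, 2.96, 0.62 and 2.41 units, and Dusp6, which switches off ERK, had 1.94, 2.06, 0.67 and 1.94 units. In each of these genes, array 3 held the lowest value and the other 3 arrays lay above it.

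On array 4, Ephx2 was low. It encodes the soluble epoxide hydrolase and had 3.49, 3.53, 2.98 and 0.38 units on arrays 1 to 4. Nrep, a gene best known from neurons, was also lowest there, with 14.5, 9.19, 7.38 and 1.82 units. On array 1, Ccnd1, which encodes cyclin D1, was high, with 3.83, 0.70, 0.55 and 1.36 units, and so was Sik1, a salt-inducible kinase that cyclic AMP induces, with 7.76, 3.34, 3.06 and 1.57 units. Noct, the deadenylase-related protein nocturnin, whose transcript cycles with the clock in mouse liver, had 3.82, 1.00, 1.05 and 0.97 units, and array 1 alone stood above the pool. None of 9 eligible genes on the list of clock genes and their outputs was among the 200, where 2.13% of all genes with a symbol were, so a list of this size shows nothing by holding none. Nrep and Noct were chosen after their values were seen.

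Genes of the endoplasmic reticulum were high on array 3 in some cases and on array 2 in another. Sdf2l1, a folding factor of that compartment, had 2.30, 4.38, 7.86 and 2.52 units on arrays 1 to 4, and Derl3, which takes part in the removal of misfolded proteins, had 0.43, 0.33, 1.66 and 0.26 units. Xbp1, a transcription factor of the unfolded protein response, had 0.45, 0.90, 0.30 and 0.33 units and was highest on array 2. Of 19 eligible genes of heat shock and endoplasmic reticulum stress, Hspa1a, Sdf2l1 and Xbp1 were among the 200 (15.8%, against 2.13% of all genes with a symbol).

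Of genes of bile acid synthesis and transport, 3 of 15 eligible ones were members (20%, against 2.13% of all genes with a symbol), and each was lowest on a different array. Abcg5, a partner in the transporter that excretes sterols into bile, had 1.02, 0.54, 0.26 and 0.99 units on arrays 1 to 4, lowest on array 3. Amacr, a racemase needed to shorten the bile acid side chain, had 20.5, 5.04, 12.4 and 9.40 units, lowest on array 2. The third, Cyp8b1, was lowest on array 1. Among other liver enzymes, Aldh1a7, an aldehyde dehydrogenase, had 0.33, 0.05, 0.19 and 0.45 units, and Acsm2, which activates medium-chain fatty acids, had 10.1, 3.67, 6.98 and 12.1 units, both lowest on array 2. Fabp7, a fatty acid binding protein, had 23.1, 12.7, 31.9 and 37.2 units and Pex11a, a peroxisome division factor, had 1.76, 3.28, 4.37 and 6.51 units, both highest on array 4. Osgin1, a target of NRF2, had 20.4, 33.7, 10.99 and 17.9 units and so shared its highest and lowest arrays with Nqo1. Derl3, Aldh1a7, Acsm2, Fabp7, Pex11a and Osgin1 were chosen after their values were seen.

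Genes of glucose and glycogen metabolism were on the list with the largest share among the 200, at 6 of 12 eligible genes against 2.13% of all genes with a symbol, but they did not move as a block. Gys2, the liver glycogen synthase, had 28.9, 26.1, 13.3 and 41.0 units on arrays 1 to 4, lowest on array 3. Ppp1r3c, which brings a phosphatase to glycogen, had 0.28, 0.16, 0.89 and 0.65 units, high on arrays 3 and 4. The 12 genes had median log2 ratios of 0.04, -0.09, -0.32 and 0.00 on arrays 1 to 4.

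Enzymes of amino acid breakdown were mostly lowest on array 3 and highest on array 2. Of 24 eligible genes, 3 were among the 200 (Sds, Got1 and Kynu; 12.5%, against 2.13% of all genes with a symbol), while 16 had their lowest ratio on array 3 and 16 their highest on array 2. Over all genes with a symbol, array 3 was lowest for 25.9% and array 2 highest for 33.2%. The median ratios of the 24 were -0.06, 0.23, -0.32 and 0.09. Got1, the cytosolic aspartate aminotransferase, had 5.81, 10.1, 3.14 and 11.02 units on arrays 1 to 4. Cps1, the enzyme of entry into the urea cycle, had log2 ratios of -0.19, 0.04, -0.79 and 0.55, and Prodh, the proline dehydrogenase, had -0.10, 0.64, -0.84 and -0.07; both were chosen after their values were seen. Kynu, an enzyme of tryptophan breakdown, went the other way, with 1.99, 3.92, 6.70 and 5.57 units.

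Genes of drug metabolism were also lowest on array 3 in 18 of 32 eligible cases, where array 3 was lowest for 25.9% of all genes with a symbol, and 6 were among the 200 (18.8%, against 2.13%). Por, the reductase that supplies electrons to the P450 enzymes, had 1.67, 1.16, 0.63 and 1.72 units on arrays 1 to 4. Cyp17a1, the steroid 17-alpha-hydroxylase, had 1.17, 0.53, 0.38 and 1.72 units. Nqo1, a quinone reductase and target of NRF2, had 1.79, 2.77, 0.95 and 1.78 units, and Inmt, an indole N-methyltransferase, had 13.03, 6.83, 4.21 and 5.38 units, highest on array 1. The median ratios of the 32 were 0.05, -0.03, -0.24 and 0.07. A low array 3 was not particular to these enzymes, since 8 of 13 reference genes of quantitative PCR (61.5%) were also lowest there.

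Cholesterol synthesis had none of its 24 eligible genes among the 200, but 17 of them were highest on array 3, against 23.8% of all genes with a symbol, with median ratios of 0.00, -0.06, 0.29 and -0.19. Among genes of fatty acid oxidation and targets of PPAR-alpha, 2 of 21 were among the 200 (9.52%, against 2.13% of all genes with a symbol). Of the 21, 15 were lowest on array 2 and 11 highest on array 4, where the shares over all genes were 27.8% and 23.5%. Acot1, an acyl-CoA thioesterase, had 0.28, 0.08, 0.11 and 0.54 units, and Cyp4a2, a fatty acid hydroxylase, had 5.59, 2.19, 4.95 and 8.74 units on arrays 1 to 4. Interferon-stimulated genes had 1 of 18 among the 200 (5.56%), Oas1a, an enzyme whose product activates RNase L, with 1.46, 1.04, 2.93 and 1.41 units. Of the 18, 12 were lowest on array 2 and 9 highest on array 3, where the shares over all genes were 27.8% and 23.8%.

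**Figure D5:**
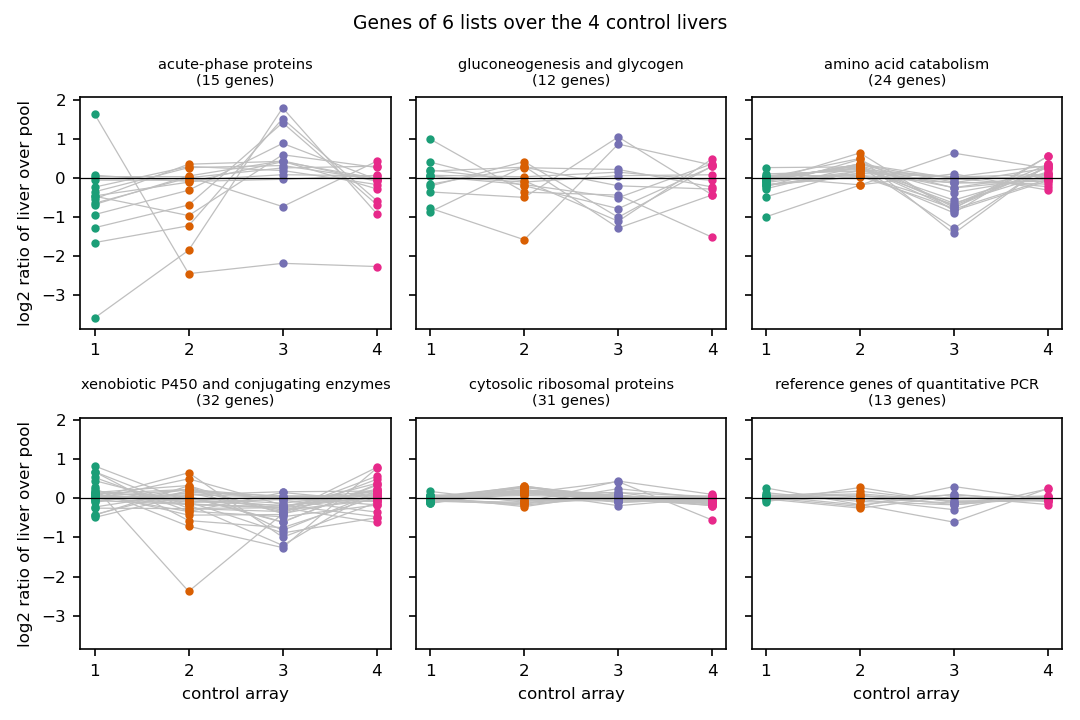
Log2 ratio of liver over pool (y axis) on the 4 control arrays (x axis) for the eligible genes of 6 lists, 1 grey line per gene. Acute-phase genes reach from -3.59 on array 1 to 1.79 on array 3, amino acid catabolism is mostly lowest on array 3, and ribosomal and reference genes lie between -0.61 and 0.44.

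Sex-dependent genes of rat liver had 6 of 24 among the 200 (25%, against 2.13% of all genes with a symbol). Cyp2c12, a steroid hydroxylase known as female-predominant in the rat, had 7.96, 12.4, 48.1 and 16.1 units on arrays 1 to 4 and a pool of 18.4 to 23.1 units. A second Cyp2c12 probe had log2 ratios of -1.31, -0.83, 1.34 and -0.48, against -1.38, -0.89, 1.39 and -0.50 for that one. Another, with an SD of 0.337, had ratios of 0.12, -0.53, 0.23 and 0.01, and probes of this family may share signal with near-identical genes. Bcl6, a repressor that is male-biased in liver, had 1.03, 0.59, 2.08 and 0.78 units, and Prlr, the prolactin receptor, had 0.48, 0.81, 0.22 and 0.59 units. The list as a whole had no common order, with median ratios of 0.07, -0.30, -0.07 and 0.07.

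Ribosomal and reference genes had median SDs of 0.132 and 0.130, near the 0.151 over all genes with a symbol. None of 31 eligible ribosomal genes, none of 13 reference genes of quantitative PCR and none of 20 plasma carriers, apolipoproteins and clotting factors were among the 200. At the 2.13% of all genes with a symbol, lists of these sizes would hold fewer than 1 member each. Their small ratios still leaned to some arrays. Of the 31 ribosomal genes, 20 were highest on array 2 and 16 lowest on array 4, against 33.2% and 27.0% of all genes. Array 3 was lowest for 8 of the 13 reference genes, against 25.9%. It was highest for 10 of the 20 plasma carriers, apolipoproteins and clotting factors, against 23.8%. Of these 31 ribosomal genes, 3 were at 90% or more of an array's highest value, where ratios may be compressed. Tbp, the TATA-binding protein, had an SD of 0.053 and Ppia, cyclophilin A, had 0.066. Gapdh had 0.180, Actb 0.213 and Hprt1 0.414. Single arrays carried much of this: the SD of Gapdh was 0.032 without array 2, those of Actb and Hprt1 were 0.119 and 0.242 without array 3, and that of Tbp was 0.034 without array 1. Hprt1, a purine salvage enzyme, had 2.56, 1.88, 1.39 and 2.75 units on arrays 1 to 4, lowest on array 3. Hnf4a, a regulator of hepatocyte identity, had 0.18, 0.19, 0.15 and 0.16 units, below the pool minimum for eligible probes.

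Globin signal differed between the livers. Hbb, the beta globin, had 8.34, 7.94, 4.40 and 14.3 units on arrays 1 to 4, lowest on array 3 and highest on array 4. Hbb was 1 of 6 eligible markers of red cells. No other marker of the cell types listed was among the 200, where 2.13% of all genes with a symbol were. Lists of at most 10 eligible markers are too short for this to single out red cells. Markers of red cells summed to 16.2, 14.9, 9.98 and 26.3 units over 8 genes. Their part in the other differences was not tested.

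Other eligible probes of the same genes were set beside the members; all of them were ranked by SD with the rest. For 13 symbols there were 16 pairs with another eligible probe. In 6 pairs the other probe was itself among the 200. In 7 of the 16 pairs both probes had the same highest and the same lowest array, and 5 of these 7 were among the 6 pairs in which the rule chose both probes. Where the other probe was outside the 200 the count was 2 of 10. Both Ugt2b probes were low on array 3, with ratios of -2.72 and -2.40, and both Tgoln2 probes, for a trans-Golgi protein, were low on array 2, with -2.11 and -2.01. The probes of Ankhd1-Eif4ebp3, a readthrough locus, did not share an order, with SDs of 1.09 and 0.102, and those of Nceh1, a cholesterol ester hydrolase, shared the highest array but not the lowest. Whether such probes read different transcripts was not tested.

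Some members lie near each other in the gene order of GRCr8. Of 129 members placed there, 13 pairs had at most 9 genes between them, which is 0.158% of all pairs of members, against 0.101% of all pairs of 6232 eligible genes placed. Of the 13 pairs, 5 (38.5%) shared their pattern over the arrays, against 10.8% of the 19604 near pairs of eligible genes, most of which vary little. Neighbours of 1 family may share signal between probes, which was not tested. These were Slpi with Wfdc2 and Retsat with Tgoln2, low on array 2, Ugt2a3 with Ugt2b, low on array 3, Akr1c2 with Akr1c12, high on arrays 3 and 4, and Rup2 with Stt3a, low on array 1. Retsat, a retinol saturase, lies directly beside Tgoln2 and had log2 ratios of 0.29, -1.65, 0.29 and 0.28, against 0.26, -2.11, 0.29 and 0.38 for Tgoln2. AKR1C3l1 lies between Akr1c2 and Akr1c12 and went the other way, with 0.48, 0.45, -2.35 and 0.17. Retsat, Tgoln2, Rup2, Stt3a, AKR1C3l1, Nceh1 and the readthrough locus were chosen after their values were seen. The 58 members without a symbol had a median SD of 0.769, against 0.874 for the 142 with one, and their largest SD was 1.77.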

How the data were processed

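RNA of control rat livers was measured on Agilent arrays with 2 channels. The submitters' processing notes name Agilent Feature Extraction 8.5.1.1. How background and dyes were corrected, and the genome build, is not given in the sources used here. Intensity values (arbitrary units, 2 decimals) were deposited on a linear scale for the liver (Cy5) and for the pool (Cy3). Beside them, the authors deposited a p-value for each probe and array. A second deposited table holds log10 ratios of the control samples, with medians of 0. Converted to log2 and set against the log2 ratios of the intensities, it gave slopes of 1.00 and was used only for that check. The 12 columns of LPS arrays in the first table and 4 in the second were not used.

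Ratios of liver over pool were taken on the log2 scale, with no pseudocount and no further normalization. Members were ranked by the SD over 4 arrays among probes with 4 values and a mean pool intensity of at least 0.2 units. Near the ceiling means at least 90% of the highest value of an array and channel. Probes were named by accession (4176 probes), current symbol (9464) or older symbol (2629) through the GRCr8 gene table; 469 kept a symbol not in it and 6877 had none. No test was run, since the ratios chose the members. Members, gene lists and the rule for names were chosen with earlier results of these data known. Named are the 20 brightest genes, the 20 of largest SD, up to 4 members per list, the probes at the edge of the 200, 10 fixed genes and the 5 most like A2m; some of these are not reported here. Rplp0, 1 of the fixed genes, had no probe.

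Alternatives were other centring, channels, minima, spread measures, filters and leaving out each array. The ranking was tested on simulated data. Python 3.11.15, numpy 2.4.6, pandas 2.3.3 and matplotlib 3.10.9 were used.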

Additional observations from a re-analysis of the deposited data

Results flagged for a closer look

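For 11 of the 76 genes named by the rule and reported here, 1 control array lay far from the other 3: its gap to the nearest of them exceeded 0.829 of the whole range (Dixon's critical value for 4 values). Chance gives about 1 in 20 groups, and 6.40% of all eligible probes and 13.5% of the 200 passed the same limit. The same ratios chose many of these genes, so the limit serves as a description and not as a test. Array 2 was the low one for Slpi at -4.18, Tbc1d2b at -3.21 and Wfdc2 at -3.15 on the log2 ratio scale. Array 3 was the low one for Ugt2b at -2.72, Ugt2a3 at -2.48, Hspa1a at -1.70 and Dusp6 at -1.24. Array 3 was the high one for Abhd3 at 1.94 and array 1 for Hamp at 1.63. Ephx2 was low on array 4 at -2.87. Gapdh, a fixed reference gene outside the 200, was high on array 2 at 0.28. Among the 27 such probes of the 200, 8 were low on array 2, 8 low on array 3 and 5 high on array 3. The causes were not tested.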

How the results depend on the processing

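No paired analysis was possible because no groups were compared and the columns carry no replicate number. Of 153 alternative values of the main results, 141 stayed within 1.5 times the value reported. This limit is wide for the choice of the 200, since keeping 134 of them still counted as within it. Of the 200 probes, 121 stayed under the median absolute deviation, and 137 or more under each other setting that kept all arrays. Leaving out 1 array kept 134 to 165 of them. The number of the 200 lowest on array 4 was 53 under quantile normalization of the ratios, against 29 as reported, and the number highest on array 1 was 78 with the liver channel alone, against 44. Leaving out 1 array gave 61 to 67 highest on array 1, 59 to 78 highest on array 4, 73 to 105 lowest on array 2 and 42 to 51 lowest on array 4, where fewer arrays share the same 200. Of the 20 brightest genes, 12 stayed with the pool channel, 5 when values on 2 arrays were enough, and 10 to 14 without 1 array. Median SDs of the channels stayed within 1.5 times without centring, under quantile normalization and without each array. Those of the 20 lists did so under quantile normalization of the ratios, the only alternative run for them. With the liver channel alone, 7 of 16 probe pairs shared both extremes too. Of 870 alternative SDs of named genes, 142 moved by more than 1.5 times, most under the median absolute deviation (a smaller scale by construction) or without array 3. With 4 animals, 2 decimals and a ceiling on the brightest probes, low values and the order of bright genes are limits; the causes of the moves were not tested.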
